A study of Mus musculus with 4 samples.

Results

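The immediate-early genes examined here are Fos, Fosb, Jun, Junb, Egr1, Egr2, Ier2, Ier3, Atf3 and Myc, genes that encode short-lived mRNAs and are classic examples of transcripts lost through deadenylation. They were taken by name from the count table, and all 10 were found among its 50559 genes. The cells were E14 mouse embryonic stem cells (ESCs), an established line grown without feeder cells on gelatin, in serum replacement medium with leukemia inhibitory factor. One group was transfected with a non-targeting siRNA (siNT) and the other with an siRNA against Cnot1 (siCnot1), each at 150 nM, and both were collected after 48 h as 2 independent replicates, giving 4 poly(A)+ RNA-seq libraries. Per the study's methods its ESCs carried a tdTomato reporter under the MERVL promoter, which is active in 2-cell-like cells, and this would be shared by both groups. No drug or inducing stimulus was named in the labels for either group. The levels below are those of transfected ESCs, and whether transfection or handling induced these genes was not tested. A knockdown by siRNA is partial and covers the whole culture.

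An immediate-early gene is transcribed within minutes of a growth factor, stress or other signal, without new protein synthesis. Kinases of the MAP kinase modules act on serum response factor, its ternary complex factor partners and CREB at the promoter, and the mRNA that results is short-lived. Many of these mRNAs carry AU-rich elements in the 3′ UTR, copies of the pentamer ATTTA or of the longer nonamer TTATTTATT, which are bound by proteins such as those of the ZFP36 family. CNOT1 holds together the CCR4-NOT deadenylase, which shortens poly(A) tails, and ZFP36 proteins are known to recruit this deadenylase. The comparison of siCnot1 with siNT asks how the level of each mRNA differs when less Cnot1 mRNA is present.

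The Cnot1 mRNA was at 949 ± 51.7 (SD, n = 2) normalized CPM with siNT and 188 ± 5.14 (SD, n = 2) with siCnot1, or 19.8% of control, so the labels and the knockdown went together. Normalized CPM is a count scaled to library size (CPM) after TMM correction. Library totals on genes ranged from 32135824 to 32557440, at which 3 counts correspond to 0.0921 to 0.0934 CPM. The ESC markers were abundant in every library, with 10 markers summing to 5787 to 7238 normalized CPM, of which 7 were lower and 1 higher in siCnot1. Markers of other cell types were low, and their part in the results below was not tested. The 8 fibroblast markers summed to 17.2 and 20.3 in siNT and 30.4 and 26.1 in siCnot1, with Col3a1 and Dcn at 0 in all libraries, and 3 of the 5 tested were higher (Acta2, Col1a1 and Pdgfrb, at log2 fold changes from 0.78 to 3.11). The 6 primitive endoderm markers summed to 10.7 and 8.49 in siNT and 14.6 and 13.8 in siCnot1, with Pdgfra higher (log2 fold change 1.02) and 4 of the 5 tested without a call. The 5 trophectoderm markers summed to 21.8 and 23.8 in siNT and 24.7 and 21.9 in siCnot1, with no call among the 4 tested. The 8 markers of the 2-cell-like state, a rare state of ESC cultures, summed to 78.2 and 80.9 in siNT and 202 and 205 in siCnot1, with 7 of the 8 higher. For comparison with these marker calls, 15.0% of all tested genes were higher and 14.7% lower, at the threshold given below. In bulk libraries, fewer cells with an mRNA and less of that mRNA per cell cannot be told apart.

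Because AU-rich elements are the best known sequence feature of unstable mRNAs, stretches with the pentamer are shown for 6 of the members, read from the 3′ UTRs of GENCODE M21 transcripts (build GRCm38). Each window is 30 bases, 5′ to 3′ on the strand of the gene, and capitals mark ATTTA pentamers or, in Fos, the stretch covered by 2 overlapping pentamers and the nonamer TTATTTATT. The windows lie at chr12:85477100-85477129 (plus strand) for Fos, chr4:95049207-95049236 (minus) for Jun, chr8:84977127-84977156 (minus) for Junb, chr17:35822484-35822513 (plus) for Ier3, chr1:191171242-191171271 (minus) for Atf3 and chr15:61990134-61990163 (plus) for Myc.
Fos: ttgtgttttcaATTTATTTATTaagatgga
Jun: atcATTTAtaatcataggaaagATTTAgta
Junb: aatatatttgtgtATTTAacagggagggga
Ier3: ctaattaatATTTAtgtATTTAtgtatatc
Atf3: caccaattccaggATTTAggccttatcatc
Myc: ttaacagatttgtATTTAattgttttttta

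Over the whole 3′ UTR, searched on the mRNA strand with overlapping matches counted, Ier3 held 5 ATTTA pentamers, Fos and Jun 4 each, Egr2 and Atf3 3 each, Junb, Egr1 and Myc 2 each, Fosb 1 and Ier2 0. So 9 of the 10 held at least 1, against 66.3% of the 14131 tested genes with a 3′ UTR in that annotation. The density was a median of 2.89 pentamers per kb in the members and 1.21 in all tested genes, at similar median UTR lengths of 1000 and 986 bases. Fos was the only member with the nonamer, which was in 7.4% of tested genes. Jun, Junb and Ier2 have 1 exon in these transcripts, as did 2.56% of tested genes. A match to these letters is a description of the sequence and not a site shown to be used.

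The knockdown of Cnot1 was not accompanied by a general rise of these mRNAs relative to the other mRNAs. Because counts were scaled within each library, a rise shared by most mRNAs would not be seen. Of the 10 genes, 8 had enough counts to be tested by quasi-likelihood in edgeR, and at a Benjamini-Hochberg adjusted p under 0.05 over all 18144 genes tested, 1 was higher in siCnot1 (Atf3), 3 were lower (Junb, Ier2 and Ier3) and 4 had no call (Fos, Jun, Egr1 and Myc). Among all tested genes 29.7% were called, 15.0% as higher and 14.7% as lower, so that 1 higher of 8, or 12.5%, is near the background share, while 3 lower of 8, or 37.5%, is above it on a small number of genes. Fold changes were below 0 for 6 of the 8, with a median log2 fold change of -0.26, beside 0.00836 for all tested genes. In 5 of the 8 the libraries of the groups did not overlap, 1 higher and 4 lower. Of these 4, Fos was apart by only 0.0941%. Groups did not overlap in 63.9% of all tested genes, with 32.7% higher and 31.2% lower. At the study's threshold, p of at most 0.05 before adjustment and a log2 fold change of 1 or more in size, Atf3 was higher and Ier3 lower, where 6.18% of tested genes were higher and 1.8% lower.

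**Figure D1:**
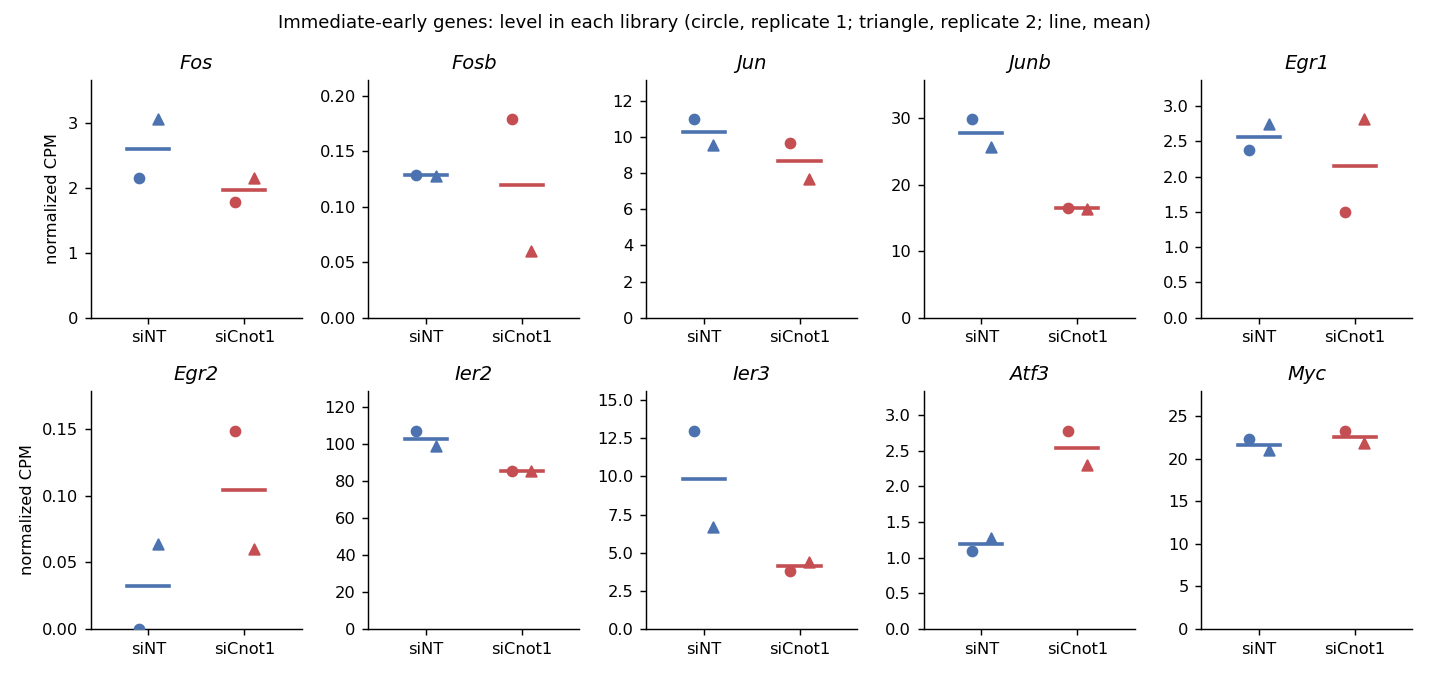
Level of each of the 10 genes in normalized CPM (y axis, separate scale for each gene) in the siNT and siCnot1 libraries, with circles for replicate 1, triangles for replicate 2 and a line at the mean. Junb, Ier2 and Ier3 lie lower and Atf3 higher in both siCnot1 libraries, while Fosb and Egr2 rest on 6 or fewer counts in each library.

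The plot of each gene's level by library shows how different the members are in abundance and in spread. Ier2 in siNT was at 107 and 98.6 normalized CPM, whereas Fosb was at 0.129 and 0.128, near the floor.

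Among the Jun genes, which encode the AP-1 subunits that can pair with one another, Junb stood lower. Junb (GRCm39 chromosome 8, 85703538 to 85705377, minus strand) had 926 and 803 counts in siNT and 554 and 545 in siCnot1, or 29.8 and 25.6 normalized CPM against 16.5 and 16.3. Both siCnot1 libraries were below both siNT libraries and nearly equal to each other. The means were 27.7 ± 2.93 and 16.4 ± 0.178 (SD, n = 2 per group), so that 59.3% of the control level was left. Its log2 fold change was -0.75 (SE 0.11, 95% interval -0.98 to -0.53), with a Benjamini-Hochberg adjusted p of 1.39e-05 (edgeR, quasi-likelihood). Junb was the only member called in all 12 refits made with another scaling, filter, test, a replicate block or a library left out.

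Jun (chromosome 4, 94937273 to 94940459, minus strand), the founding member of the family, had 342 and 301 counts in siNT and 325 and 257 in siCnot1. The libraries overlapped, since the first siCnot1 library, at 9.70 normalized CPM, was above the second siNT library, at 9.60. The means were 10.3 ± 0.983 and 8.69 ± 1.43 (SD, n = 2 per group), with a log2 fold change of -0.24 (95% interval -0.57 to 0.08, adjusted p = 0.262 from edgeR). These data therefore leave room for a fall by 0.57 on the log2 scale and for a rise of 0.08. The same interval does not reach the point estimate of Junb, but the difference between these genes was not tested.

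The Fos genes among the members, Fos and Fosb, encode partners of the Jun proteins, and both were low in these cells. Fos (chromosome 12, 85520664 to 85524048, plus strand) had 67 and 96 counts in siNT and 60 and 72 in siCnot1, or 2.15 and 3.06 normalized CPM against 1.79 and 2.15. The lower siNT library was above the higher siCnot1 library by 0.0941%, so the groups touched. Its log2 fold change of -0.40 had a 95% interval of -1.02 to 0.21 and was not called (adjusted p = 0.336, edgeR). Fosb (chromosome 7, 19036621 to 19043970, minus strand) had 4 and 4 counts in siNT and 6 and 2 in siCnot1 and was not tested. Its ratio of summed normalized counts, siCnot1 over siNT, was 0.935, with a 95% interval of 0.306 to 2.86 that covers counting error only, so a change up to about that size would not have been detectable at this depth.

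Atf3, a stress-induced bZIP factor that pairs with Jun proteins, was the member that was higher. Atf3 (chromosome 1, 190902493 to 190915530, minus strand) had 34 and 40 counts in siNT and 93 and 77 in siCnot1, or 1.09 and 1.28 normalized CPM against 2.78 and 2.30. Both siCnot1 libraries were above both siNT libraries. The means were 1.18 ± 0.13 and 2.54 ± 0.336 (SD, n = 2 per group), a rise of 2.14-fold. On the log2 scale this was 1.10 (SE 0.323, 95% interval 0.43 to 1.77, Benjamini-Hochberg adjusted p = 0.0122, edgeR). The call depended on all 4 libraries: leaving out siNT replicate 1, siNT replicate 2, siCnot1 replicate 1 or siCnot1 replicate 2 kept the value between 0.95 and 1.22 but gave an adjusted p between 0.0518 and 0.134 (edgeR). Without a filter on low counts it was also just past the threshold (adjusted p = 0.0531, edgeR).

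**Figure D2:**
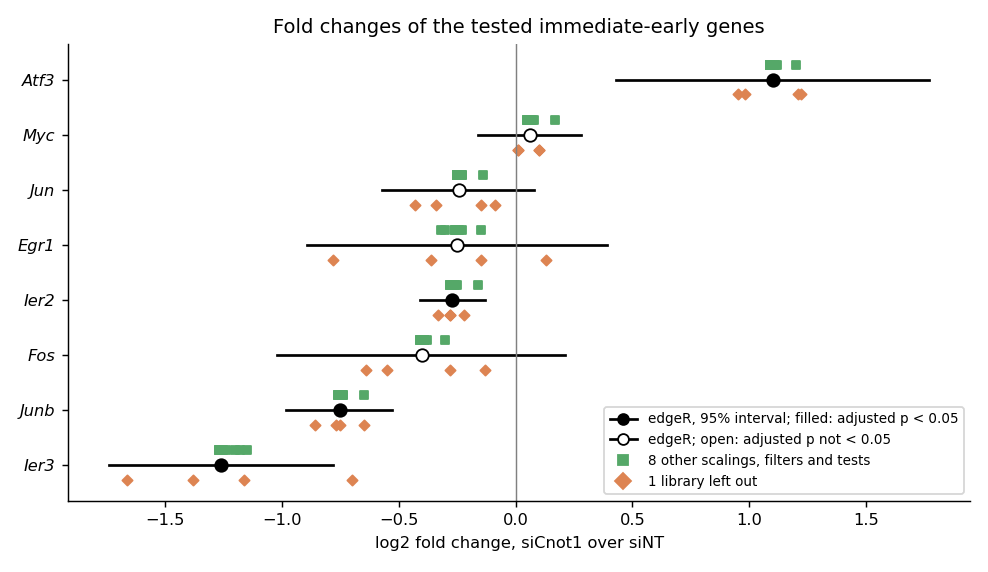
Log2 fold change of siCnot1 over siNT (x axis) for the 8 tested immediate-early genes, with edgeR's estimate and its 95% interval as circles and lines, 8 refits with other scalings, filters or tests as squares and refits with 1 library left out as diamonds. Junb lies between -0.86 and -0.65 in all refits, Ier3 spreads from -1.66 to -0.70 with the library left out, and Egr1 crosses 0.

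The Ier genes are named for their immediate-early response and do not encode DNA-binding factors of the AP-1 or EGR families. Ier3 (chromosome 17, 36132605 to 36133803, plus strand), which encodes a regulator of cell survival, had 405 and 209 counts in siNT and 127 and 148 in siCnot1. In normalized CPM these were 13.0 and 6.67 against 3.79 and 4.42, so that siCnot1 was lower in every library while the siNT libraries differed from each other by more than the siCnot1 libraries did. The log2 fold change of -1.26 (SE 0.231, 95% interval -1.74 to -0.78, adjusted p = 0.000205 from edgeR) put Ier3 at percentile 1.43 of all tested genes. Leaving out siNT replicate 1 gave -0.70 (adjusted p = 0.101, edgeR), so the size of the fall rested in large part on that library. Without a filter on low counts the value was -1.27 with an adjusted p of 0.0739 (edgeR).

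Ier2 (chromosome 8, 85387960 to 85389481, minus strand), the most abundant member, had 3325 and 3089 counts in siNT and 2854 and 2847 in siCnot1. Both siCnot1 libraries were below both siNT libraries, at 85.2 and 85.1 normalized CPM against 107 and 98.6. The fall was small, to 82.9% of the control mean, with a log2 fold change of -0.27 (SE 0.0662, 95% interval -0.41 to -0.13, adjusted p = 0.0031 from edgeR). The call was lost with library totals in place of TMM scaling (-0.16, adjusted p = 0.0623, edgeR). It was also lost without siNT replicate 1, siCnot1 replicate 1 or siCnot1 replicate 2, with values from -0.28 to -0.22 and adjusted p values from 0.0657 to 0.101 (edgeR). Ier2 was also the member with no ATTTA in its 3′ UTR.

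The EGR genes encode zinc-finger factors that bind GC-rich promoters. Egr1 (chromosome 18, 34994260 to 34998009, plus strand) had 74 and 86 counts in siNT and 50 and 94 in siCnot1, or 2.38 and 2.74 normalized CPM against 1.49 and 2.81. The siCnot1 libraries lay on either side of the siNT libraries. Egr1 had a log2 fold change of -0.25 (95% interval -0.89 to 0.39, adjusted p = 0.594 from edgeR). Without siCnot1 replicate 1 the value was 0.13. Egr2 (chromosome 10, 67370334 to 67383354, plus strand) had 0 and 2 counts in siNT and 5 and 2 in siCnot1 and was not tested. The ratio of its summed normalized counts was 3.27, with an interval of 0.623 to 32.3 for counting error. Its span overlaps Ado on the minus strand (67380341 to 67384785), which had 558 to 657 counts, and whether the counting used strand is not given in the sources used here.

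Myc (chromosome 15, 61857190 to 61862210, plus strand), the bHLH factor that supports self-renewal of ESCs downstream of leukemia inhibitory factor, was level. It had 695 and 658 counts in siNT and 781 and 730 in siCnot1, or 22.3 and 21.0 normalized CPM against 23.3 and 21.8. The libraries of the groups overlapped. The log2 fold change of 0.06 (SE 0.105, adjusted p = 0.73 from edgeR) had an interval in linear fold of 0.895 to 1.21, so a change larger than that lay outside the 95% interval in either direction.

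**Figure D3:**
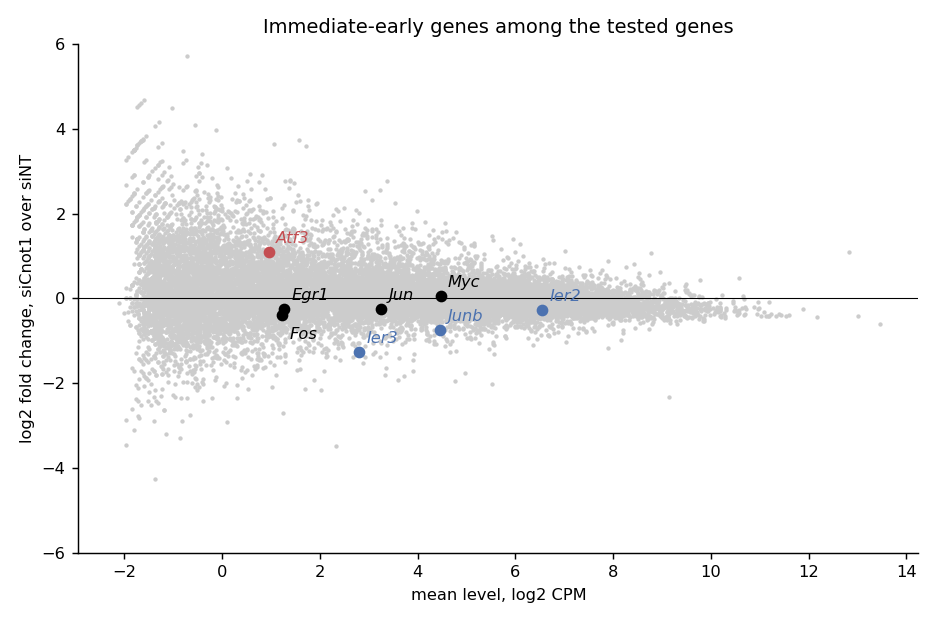
Mean level (x axis, log2 CPM) and log2 fold change of siCnot1 over siNT (y axis) of the tested genes as grey points, with the 8 tested immediate-early genes in colour, red for higher, blue for lower and black for no call. Ier3 lies at the lower edge of the cloud at its level, and 11 genes beyond 6 in either direction are not drawn.

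The plot of fold change against level sets the members among the other genes. By log2 fold change Ier3 was at percentile 1.43, Junb at 4.37, Fos at 12.7, Ier2 at 20.6, Egr1 at 22.2, Jun at 22.8, Myc at 55.5 and Atf3 at 93.6 of the 18144 tested genes. Atf3, Egr1 and Fos, whose fold changes had the widest intervals of the members, also had the fewest counts of the 8.

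Per length, in FPKM from the exon length in the table, Ier2 led the members in both groups, with means of 67.5 ± 3.87 for siNT and 55.9 ± 0.0568 for siCnot1 (SD, n = 2 each). In siNT Junb followed at 15.1 ± 1.59, then Ier3 at 9.03 ± 4.12 and Myc at 9.03 ± 0.397, whose libraries overlapped, and then Jun at 3.23 ± 0.308. Fos at 1.24 ± 0.305, Egr1 at 0.834 ± 0.084 and Atf3 at 0.599 ± 0.0655 came next, followed by Fosb at 0.0339 and Egr2 at 0.00351. Between other neighbours in this order the siNT libraries did not overlap. In siCnot1 the order of the middle members differed. Myc at 9.41 ± 0.442 stood above Junb at 8.92 ± 0.0969, and Atf3 at 1.28 ± 0.17 stood above Fos at 0.935 ± 0.121 and Egr1 at 0.7 ± 0.303. The last pair overlapped, as did Fosb and Egr2.

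**Figure D4:**
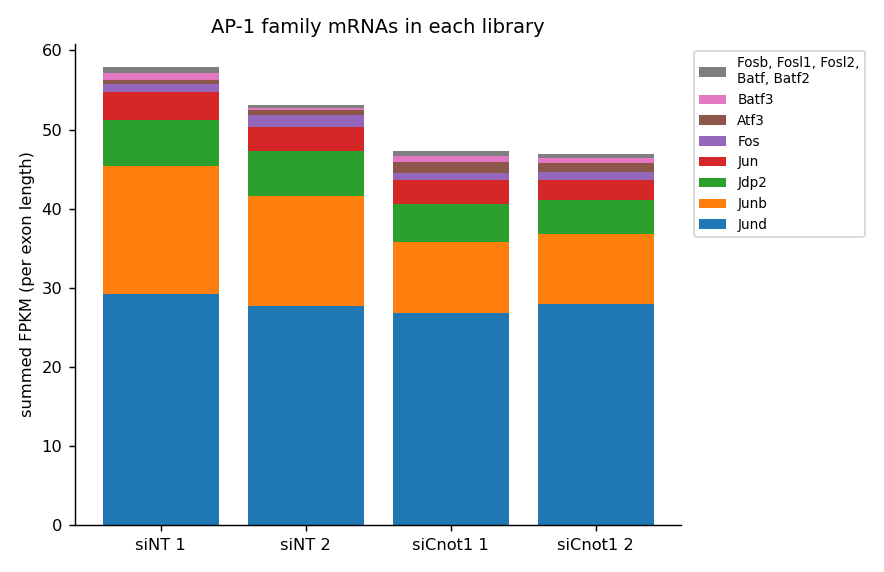
FPKM (y axis) of AP-1 family mRNAs summed in each library (x axis), with a colour for each gene. Jund makes up 50.4% to 59.4% of the sum, and the Junb part is smaller in both siCnot1 libraries.

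The Jun, Fos, Atf3, Jdp2 and Batf mRNAs encode the bZIP proteins from which AP-1 dimers form, and the plot of their summed FPKM shows the balance of the pool. Jund, the family member that is not induced in the immediate-early manner, supplied 50.4% and 52.1% of the sum in siNT and 56.7% and 59.4% in siCnot1. Its own FPKM was 29.2 and 27.7 (siNT) against 26.8 and 27.9 (siCnot1), with a log2 fold change of -0.06 (95% interval -0.20 to 0.08, adjusted p = 0.57 from edgeR) and 0.05 with library totals. Junb supplied 27.9% and 26.2% of the sum in siNT and 19.0% and 18.9% in siCnot1. Atf3 supplied 0.955% and 1.21% with siNT and 2.98% and 2.48% with siCnot1. Jun-type mRNAs exceeded Fos-type mRNAs in every library, by 33.9 and 25.5 times in siNT and by 34.8 and 32.0 times in siCnot1. These shares were not tested, and each follows the others because they sum to the whole.

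The related genes were taken as 7 lists by role, of which 104 of 112 genes were tested. The lists were chosen with earlier results of these data known, so their shares are a description only. Over all of them 12 were higher and 35 lower, or 11.5% and 33.7%, beside 15.0% and 14.7% of all tested genes, and the median log2 fold change was -0.10. The counts depended on the scaling and on the libraries. With library totals in place of TMM, 19 of the 104 were higher and 20 lower, and their median was 0.00. Of all 18144 tested genes, 3999 were then higher and 1563, or 8.61%, lower. The share of lower genes among the related genes thus stayed above that of all tested genes, and the share of higher genes stayed below it. With each library left out in turn, 3 to 6 were higher and 17 to 23 lower. The genes described below were taken from those with the largest called change in each list and from the known partners of the members. Of the 26 with a call that this rule gave, 11 kept it with each library left out in turn and 15 lost it at least once. Another scaling, filter or test or the block ended the call of 12, and 11 of these lost it with no filter on low counts. Leaving out a library also cut the calls over all tested genes. With no filter on low counts, 4.3% of all 30308 genes were higher and 4.78% lower. A lost call is therefore not particular to these genes.

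**Figure D5:**
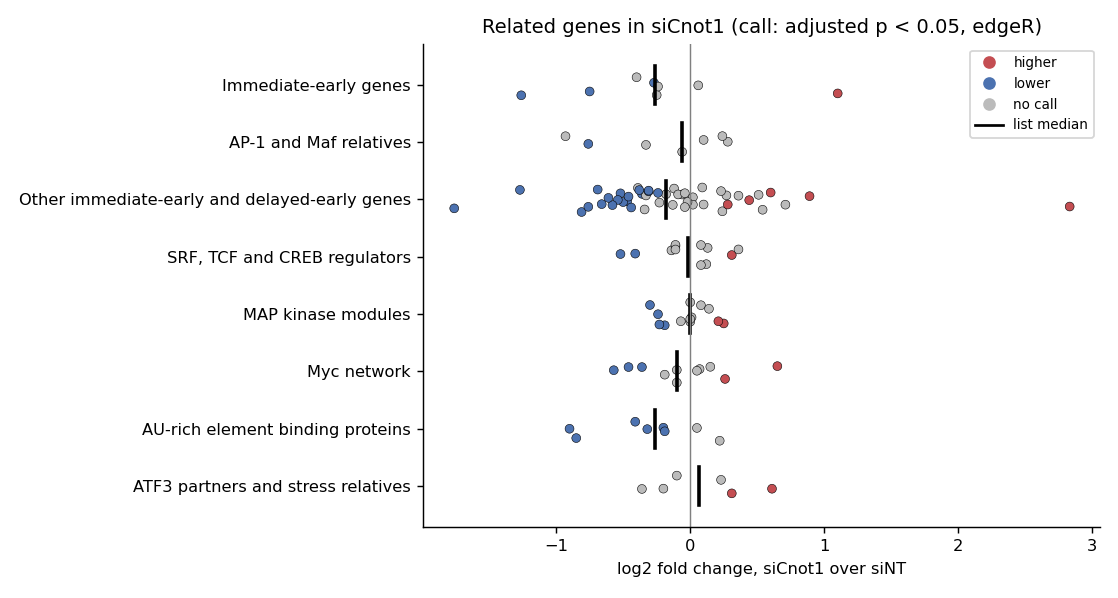
Log2 fold change of siCnot1 over siNT (x axis) for each tested gene of the immediate-early genes and of 7 related lists (rows), with red for higher, blue for lower and grey for no call at an adjusted p under 0.05 from edgeR, and a black bar at the list median. Points are spread vertically within a row for legibility, and Gadd45g at 2.83 is the point farthest to the right.

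Upstream of the promoter, the MAP kinase list had 2 genes higher (15.4%) and 4 lower (30.8%) of 13 tested, with a median of 0.000482. Over all tested genes 15.0% were higher and 14.7% lower. The changes in this list were small. Map2k4 at 0.25 and Mapk14 at 0.21 were higher, while Rps6ka3 at -0.30 and Mapk8 at -0.24 were among the lower genes (log2 fold changes, adjusted p under 0.05 in edgeR). With a library left out, the calls of Map2k4, Mapk14 and Mapk8 were lost in all 4 refits and that of Rps6ka3 in 3 (all but without siNT replicate 1). Of the SRF, TCF and CREB regulators, 1 was higher and 2 lower of 12 tested (8.33% and 16.7%), below or near the shares over all tested genes. Srf itself was at 59.6 and 54.5 normalized CPM in siNT and 51.2 and 52.2 in siCnot1 (log2 fold change -0.14, adjusted p = 0.202 from edgeR). Atf1, a CREB relative, was at -0.52 and kept its call in all refits, whereas Elk1 at 0.31 and Crem at -0.41 lost theirs whichever library was left out.

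The AP-1 and Maf relatives had 0 higher and 1 lower (14.3%) of 7 tested, no more than the 15.0% and 14.7% of all tested genes. The lower gene was Maff, a small Maf protein without an activation domain, at 301 and 208 counts in siNT and 148 and 175 in siCnot1. Its log2 fold change was -0.76 (SE 0.197, adjusted p = 0.00518 from edgeR). The call was lost with no filter on low counts and without siNT replicate 1, siCnot1 replicate 1 or siCnot1 replicate 2, with values of at most -0.47 in each of the 4 refits.

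Other immediate-early and delayed-early genes behaved unevenly, with 5 higher and 19 lower of 47 tested and a median of -0.18. These were 10.6% and 40.4%, beside 15.0% and 14.7% of all tested genes. Library totals gave 9 higher and 13 lower, and leaving out a library gave 2 to 4 higher and 10 to 14 lower. Bhlhe40, a transcriptional repressor tied to the circadian clock, had 1792 and 1248 counts in siNT and 510 and 452 in siCnot1, a log2 fold change of -1.76 (SE 0.132, adjusted p = 1.47e-09 from edgeR). Id1, an inhibitor of bHLH factors, was at 36.8 and 34.4 normalized CPM in siNT and 15.7 and 13.9 in siCnot1 (log2 fold change -1.27). Dusp5, a MAP kinase phosphatase, fell by 0.81 on the log2 scale. These falls were called in all refits.

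The 3 largest of the 5 rises in that list were those of Gadd45g, Plk2 and Btg2. Gadd45g, a growth arrest and DNA damage gene, had 3 and 9 counts in siNT and 52 and 41 in siCnot1, a log2 fold change of 2.83 (SE 0.587, adjusted p = 0.000721 from edgeR), and without siNT replicate 1 it was 2.25 with an adjusted p of 0.0655. Plk2, a Polo-like kinase, was at 42.9 and 49.4 normalized CPM in siNT and 88.4 and 83.1 in siCnot1 (log2 fold change 0.89). Btg2, an antiproliferative protein that itself binds the deadenylase subunits of CCR4-NOT, was at 47.0 and 51.2 against 75.3 and 73.7 (log2 fold change 0.60). Both were called in all refits. Dusp1 and Nr4a1, classic members of the response, were not called. Dusp1, a MAP kinase phosphatase, had a log2 fold change of -0.06 (adjusted p = 0.716, edgeR), which turned to 0.05 with library totals and to 0.01 without siNT replicate 1, and Nr4a1, an orphan nuclear receptor, had -0.13 (adjusted p = 0.32, edgeR). Egr3 had 0 and 2 counts in siNT and 6 and 4 in siCnot1 and was not tested.

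In the Myc network 2 genes were higher and 3 lower of 11 tested, or 18.2% and 27.3%, beside 15.0% and 14.7% of all tested genes. Mycn, the Myc paralog that is abundant in ESCs, was at 148 and 163 normalized CPM in siNT and 99.3 and 110 in siCnot1 (log2 fold change -0.57, SE 0.0671, adjusted p = 9.08e-07 from edgeR). The log2 fold change of Mycl was 0.65 and lost its call without siNT replicate 1 (0.54, adjusted p = 0.0795 from edgeR). Max, the partner that all Myc proteins need, was at -0.10 (adjusted p = 0.255, edgeR) and at 0.00 with library totals. Among the genes for Max-binding antagonists, Mxi1 at -0.46 kept its call in all refits. Mnt at -0.36 lost its call with 3 of the 4 libraries left out, namely siNT replicate 1 and either siCnot1 replicate, and Mlxip, a bHLH factor that pairs with Mlx in place of Max, was at 0.26 and lost its call with any library left out. So the lists hold a Myc that was level beside a Mycn that was lower, with the difference between them not tested.

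Of the 8 genes for AU-rich element binding proteins, 6 (75.0%) were lower and 0 higher, beside 14.7% and 15.0% of all tested genes. This list too was chosen with earlier results known, and its share was not tested. The median log2 fold change of the list was -0.26. Zfp36, which encodes tristetraprolin and is itself an immediate-early gene, had 506 and 498 counts in siNT and 294 and 281 in siCnot1, a log2 fold change of -0.90 (SE 0.131, adjusted p = 1.35e-05 from edgeR). Zfp36l1 had 3493 and 3920 counts against 2187 and 2211, a log2 fold change of -0.85 (SE 0.069, adjusted p = 4.19e-09 from edgeR). In both genes the siCnot1 libraries were well below the siNT libraries, and the calls held in all refits, as did that of Hnrnpd, the gene of AUF1, at -0.41. Zfp36l2 was at 32.0 and 33.7 normalized CPM in siNT and 22.2 and 30.6 in siCnot1, and its log2 fold change of -0.32 (adjusted p = 0.046, edgeR) lost its call under 7 of 12 refits, including those without siNT replicate 1, siNT replicate 2 or siCnot1 replicate 1, where the adjusted p reached 0.624. With library totals in place of TMM, 3 of the 8 were lower and 1 higher, beside 1563 lower and 3999 higher of all 18144 tested genes.

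The ATF3 partners and stress relatives had 2 higher (33.3%) and 0 lower of 6 tested, beside 15.0% and 14.7% of all tested genes. The other 4 had no call. By sign 3 lay above 0 and 3 below, with log2 fold changes from -0.36 to 0.61. Atf4, the factor of the integrated stress response that acts on the Atf3 promoter, was at 53.9 and 52.3 normalized CPM in siNT and 63.9 and 68.1 in siCnot1 (log2 fold change 0.31, adjusted p = 0.00313 from edgeR). Atf5 was at 10.6 and 7.88 against 13.9 and 14.4 (log2 fold change 0.61, adjusted p = 0.00275 from edgeR). The direction of Atf4 and Atf5 was that of Atf3. Their calls were likewise lost in refits with a library left out, where calls over all genes also fell. A link between them and the level of Atf3 was not tested. Atf4 was called without siCnot1 replicate 1 and in no other refit with a library left out, and Atf5 without siNT replicate 1 alone.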

How the data were processed

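Poly(A)+ RNA from E14 ESCs was sequenced by the authors with a dUTP-stranded, paired-end protocol on the NovaSeq platform. The deposited values are raw counts for each gene and library, neither normalized nor pooled, beside the gene's positions and exon length. The submitters' processing notes name fastp 0.19.4, HISAT2 2.2.1, DESeq2 1.40.2 and mm10, whereas the deposited positions are those of GRCm39. The counting program and its strand setting are not given in the sources used here. Of 50559 genes, 30308 had at least 1 count.

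Groups came from the sample labels. Genes were filtered with filterByExpr (minimum count 10, leaving 18144), scaled by TMM and compared with the quasi-likelihood test of edgeR 4.0.16 (R 4.3.3), fitting condition alone, with Benjamini-Hochberg adjustment over all genes tested. Of the study's methods, DESeq2 with condition and its threshold were kept as alternatives. Standard errors are the log2 fold change over the root of F, and 95% intervals use 22.9 degrees of freedom. FPKM was computed from normalized CPM and the deposited exon length. Ratios of genes with few counts have exact conditional intervals for counting error only, and intervals and floors cover no other error. The members, the related lists and the markers were chosen with earlier results of these data known. Named related genes were the at most 3 largest called changes in each direction per list and set partners of the members, of which 1 is not reported here. GENCODE M21 transcripts (GRCm38) were joined by gene name to 14131 genes, 97.6% of the 14484 tested genes with a protein-coding name, and no position was converted between builds.

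Refits used the size factors of DESeq2, upper quartiles or library totals for scaling, no filter on low counts, at least 1 CPM in 2 libraries, DESeq2 1.42.0, limma-voom (limma 3.58.1), a replicate block, the study's threshold and leaving out each library. The fit was tested on simulated data. Pearson's r of log2 normalized CPM across genes was 0.995 within each group and 0.985 to 0.987 between groups. The TMM factors of the siNT libraries were 0.964 and 0.963, and those of siCnot1 1.04 and 1.03.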

Additional observations from a re-analysis of the deposited data

How the results depend on the processing

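With 2 libraries per group, the interval of each fold change sets what can be seen, and 2 members had too few counts to test. Fos, Jun, Egr1 and Myc had no call in any of 12 refits, and only the direction of Egr1 among the members turned (0.13 without siCnot1 replicate 1). Scaling by library totals raised the count of higher genes to 3999 and cut that of lower genes to 1563, shifted the median of all tested genes to 0.116, moved the member median to -0.15 and ended the call of Ier2 (-0.16), and Jund, Max and Dusp1, all without a call, came to 0.05, 0.00 and 0.05. Unfiltered, the table gave 1303 higher and 1450 lower genes, 0 members were higher, and Ier3 (-1.27) and Atf3 (1.09) lost their calls. The member median was -0.29 with limma-voom. With the replicate block it was -0.28, and the block left the members' calls at 1 higher and 3 lower. Same-numbered libraries deviated from their group means with a correlation of -0.00565 across genes. With 2 libraries per group this cannot show whether same-numbered libraries were prepared together. At the study's threshold 1 member was lower. Leaving out each library in turn gave 743 to 1439 higher and 871 to 1463 lower genes, 0 to 0 members higher and 1 to 3 lower, and a member median of -0.41 to -0.24. Values then ran from -0.78 to 0.13 for Egr1, -0.33 to -0.22 for Ier2, -1.66 to -0.70 for Ier3 and 0.95 to 1.22 for Atf3, and Dusp1 from -0.13 to 0.01 (without siNT replicate 1). Leaving out a library leaves 1 in its group, which is assumed to vary like the other group. The cause of these shifts was not tested.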

Other observations

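The nonamer TTATTTATT was present in the 3′ UTR of 1045 tested genes. Of these, 242 (23.2%) were higher and 129 (12.3%) lower in siCnot1. Over all 14131 genes with a 3′ UTR, 17.5% were higher and 16.4% lower. The median log2 fold change was 0.0803 with the nonamer and 0.0218 for all 14131. In the 248 genes with at least 2 nonamers, 20.6% were higher and 12.9% lower, with a median of 0.0662. The genes with at least 1 nonamer also had longer 3′ UTRs, with a median of 2177 bases against 986, and no test was made. By pentamer count, 14.9% of genes with 0 ATTTA were higher and 16.8% lower, and 19.7% of genes with at least 5 were higher and 17.5% lower. The median 3′ UTR lengths of these 2 classes were 354 and 2932 bases. Among the related genes, 19 of 103 held the nonamer, and of these 10 were lower, 3 were higher (Elk1, Plk2 and Plk3) and 6 had no call. The lower ones included Zfp36, Zfp36l1, Zfp36l2, Pim1, a survival kinase gene with 3 copies (log2 fold change -0.47, adjusted p = 2.72e-06 from edgeR), and Phlda1 (-0.61, adjusted p = 0.000443 from edgeR). Pim1, Phlda1 and Plk3 were named after their values were seen.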
